A study of Myotis pilosus with 4 samples.

Results

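The miRNAs described here are the arms of the bat mir-29 hairpin, miR-29-3p and miR-29-5p, which are 2 of the 196 mature miRNAs listed for this species by the study. Each was found by looking up its listed mature sequence among the clean sequence tags of each library, first as an identical tag and then among all tags that begin with its first 18 nt. The small RNA came from adult bats that the labels name Myotis pilosus and, in the protocol, Myotis ricketti. Whole brain and white adipose tissue (WAT) were taken in both states. Bats in hibernation, cooled to about 9°C in surroundings of 7°C, were the source of HB (brain) and HA (WAT). Active bats, called aroused in the labels, were at about 36°C in surroundings of 21°C and were the source of AB (brain) and AA (WAT). Each library was 1 pool of RNA from 3 wild-caught, untreated bats, so there is 1 library a group, no replicate spread and no test across replicates. Capture was in October for active bats and in March for those in hibernation, so state and season cannot be told apart.

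A miRNA hairpin is cut into a duplex, from which usually 1 arm is loaded into an Argonaute protein while the other is degraded. The loaded arm finds its target mRNAs mainly through its seed, bases 2 to 8. In mammals, miR-29 is a family of closely related hairpins whose 3p arms share a seed and are the abundant arms; it is known for repressing collagens and other extracellular matrix genes, is abundant in the mature brain, and lowers the response of cultured fat cells to insulin.

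The sequences below are shown because the family can only be told apart by bases after the seed. They are DNA letters as in the tags, written 5′ to 3′, with the seed in capitals. The first 3 are listed by the study and the last is the most abundant tag of a related type that the study does not list.
miR-29-3p: tAGCACCAtctgaaatcggtta
miR-29-5p: aCTGATTTcttttggtgttca
miR-285-3p: tAGCACCAtttgaaatcagt
unlisted type: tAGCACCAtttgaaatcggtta
miR-29-3p is 22 nt long, miR-29-5p 21 nt and miR-285-3p 20 nt. Of the 196 listed miRNAs, 2 carried the seed of miR-29-3p, namely miR-29-3p itself and miR-285-3p, and no other listed miRNA carried the seed of miR-29-5p. Counting positions from 1 at the 5′ end of miR-29-3p, miR-285-3p differs from it by C10T and G18A over their shared first 18 bases, and the unlisted type differs by C10T alone. As background, mammalian catalogues name these sequences miR-29a-3p (the listed miR-29-3p), miR-29b-3p (the miR-285-3p type) and miR-29c-3p (the unlisted type), while miR-285 is the name of a fly miRNA with the same seed. These names were not checked against a catalogue, and the place of the hairpins in the genome was not analysed here.

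The libraries held 10007650 to 12159756 clean reads, and tags identical to the 196 listed miRNAs took 13.2% of them in HA and 20.9 to 24.0% in the other libraries. Tissue labels were checked against marker miRNAs. The 5 brain markers summed to 17.8% of listed miRNA reads in HB and 19.5% in AB against 0.0916% in HA and 0.0990% in AA, where miR-153-3p was at 0 in both and miR-219-5p at 0 in HA. The 3 miRNAs abundant in adipose tissue took 0.803% in HA and 7.57% in AA, against 0.0583% in HB and 0.193% in AB. This sum was mostly miR-378-3p. The 2 stromal and vessel markers took 10.3% and 19.2%, and the 3 muscle markers 13.2% and 8.72%. These last sums were mostly miR-199-3p and miR-1-3p, and members of a list did not move together. The TMM-scaled log2 ratio of HA to AA was -1.22 for miR-199-3p but 0.67 for miR-145-3p. For muscle it was 0.29 for miR-1-3p, -1.64 for miR-133-3p and -0.06 for miR-206-3p. The WAT libraries thus differed in the levels of single markers as well as in state. The 3 blood markers took 0.0113 to 0.182% and the 2 epithelial markers 0.00117 to 0.0197% over the 4 libraries, with miR-200a-3p at 0 in AA. In such bulk tissue, fewer cells of a type and less RNA per cell cannot be told apart, and the part of cell composition in the values that follow was not tested.

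Counted by its exact tag, miR-29-3p was among the 3 most abundant listed miRNAs in every library, and it made up a larger share of the listed miRNA reads in the hibernating library of each tissue. It had 799130 reads in HB and 416098 in AB, then 373410 in HA and 357670 in AA. In RPM, reads scaled to 1000000 clean reads, the brain levels were 65719 in HB (95% exact interval 65580 to 65859) and 41578 in AB (41454 to 41702). The WAT levels were 32351 RPM in HA (32249 to 32453) and 31272 RPM in AA (31171 to 31373). On this scale the order was HB, AB, HA, AA, and no neighbours in it overlapped in their intervals, which cover counting error only, since PCR copies are not independent molecules. The order within WAT turned with the tags counted, since with all tags that begin with its first 18 nt HA was at 40235 RPM and AA at 41295 RPM. As a share of all listed miRNA reads, miR-29-3p took 31.4% in HB and 17.3% in AB, then 24.6% in HA and 14.9% in AA. On that scale both hibernating libraries stood above both active ones.

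By rank among the listed miRNAs, each counted by its exact tag, miR-29-3p was in place 1 in HB and HA, 2 in AB and 3 in AA. In brain its neighbour was the neuronal miR-124a-3p, with 415697 reads in HB and 449967 in AB. By exact tags the neuronal miRNA was thus above miR-29-3p only in the active brain library. With tags that contain bases 2 to 17, which miR-124a-3p shares with miR-124b-3p, it was above in HB too, at 1208807 reads against 1173965. In WAT the neighbour of miR-29-3p was miR-7d-5p of the let-7 kind, with 312837 reads in HA and 366251 in AA. Next below in AA was miR-100-5p with 297206. In AB the miRNA next below was again miR-7d-5p, with 364795 reads. The rank rests on the exact tags, since the listed form holds different shares of the reads of different miRNAs. With all tags of each of the 177 distinct first 18 nt counted, miR-29-3p was in place 2 in HB and HA, 3 in AB and 5 in AA. The start shared by miR-7b-5p and miR-7d-5p was then above it in every library, that of miR-124a-3p and miR-124b-3p also in AB, and miR-100-5p, miR-378-3p and miR-199-3p also in AA.

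miR-29-5p, the passenger arm, was rare and its order across libraries was different. It had 83 reads in HB and 108 in AB, then 32 in HA and 53 in AA. Its level was 6.83 RPM in HB (5.44 to 8.46) and 10.8 RPM in AB (8.85 to 13.03), and for WAT 2.77 (1.90 to 3.91) in HA and 4.63 (3.47 to 6.06) in AA. The active library was the higher one in each tissue. The intervals of AB and HB did not overlap, whereas those of HB and AA, and of AA and HA, did. It ranked 87 in HB and 71 in AB, then 93 in HA and 88 in AA among the 196. The nearest listed miRNAs in level were a bat-specific miRNA (90 reads) and miR-138-3p (70) in HB, miR-30b-3p (111) and miR-153-5p (107) in AB, bat-specific ones (32 and 31) in HA, and miR-590-3p (55) and a bat-specific one (52) in AA, so its neighbours were mostly other rare arms and bat-specific miRNAs.

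**Figure D1:**
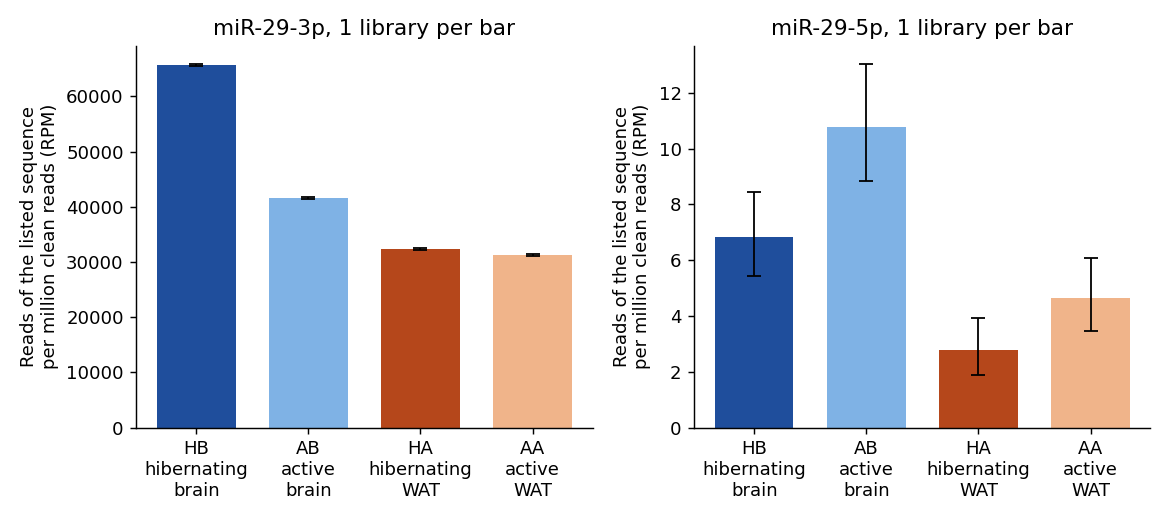
Reads of the listed miR-29-3p and miR-29-5p sequences in RPM (linear axes from 0, different scales) in the 4 libraries, 1 library per bar, with exact 95% counting intervals. miR-29-3p runs from 65719 in HB to 31272 in AA, while miR-29-5p, at 2.77 to 10.8, is highest in AB and higher in the active library of each tissue.

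The state comparison asks which miRNAs differed between hibernating and active bats in each tissue. miR-29-3p was higher in the hibernating library in brain, with a log2 ratio of HB to AB of 0.95 (0.945 to 0.956), a fold of 1.93, and to a smaller extent in WAT, with a log2 ratio of HA to AA of 0.40 (0.392 to 0.405), a fold of 1.32. miR-29-5p had log2 ratios of -0.37 in brain (-0.80 to 0.06) and -0.39 in WAT (-1.07 to 0.27), intervals that include 0. These ratios were scaled by TMM, which sets a trimmed and weighted mean of the log2 ratios of the listed miRNAs to 0. Their median need not be 0. With this scaling neither arm reached a size of 1 on the log2 scale, which 40.5% of the 153 listed miRNAs with at least 10 reads did in brain and 49.3% of 142 did in WAT. In brain 22.9% were higher and 17.6% lower by that size, and in WAT 20.4% and 28.9%.

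Set among all listed miRNAs, miR-29-3p lay on the upper side in both tissues without being at the top. In brain 36 of 153 had a higher log2 ratio and the median of all was 0.01, and in WAT 40 of 142 were higher and the median was -0.29. Relative to these medians, miR-29-3p was higher by 0.94 in brain and 0.69 in WAT on the log2 scale. Among the conserved miRNAs alone, 14 of 99 were higher than miR-29-3p in brain and 13 of 81 in WAT. miR-29-5p stood 0.38 under the median in brain and 0.10 under it in WAT.

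**Figure D2:**
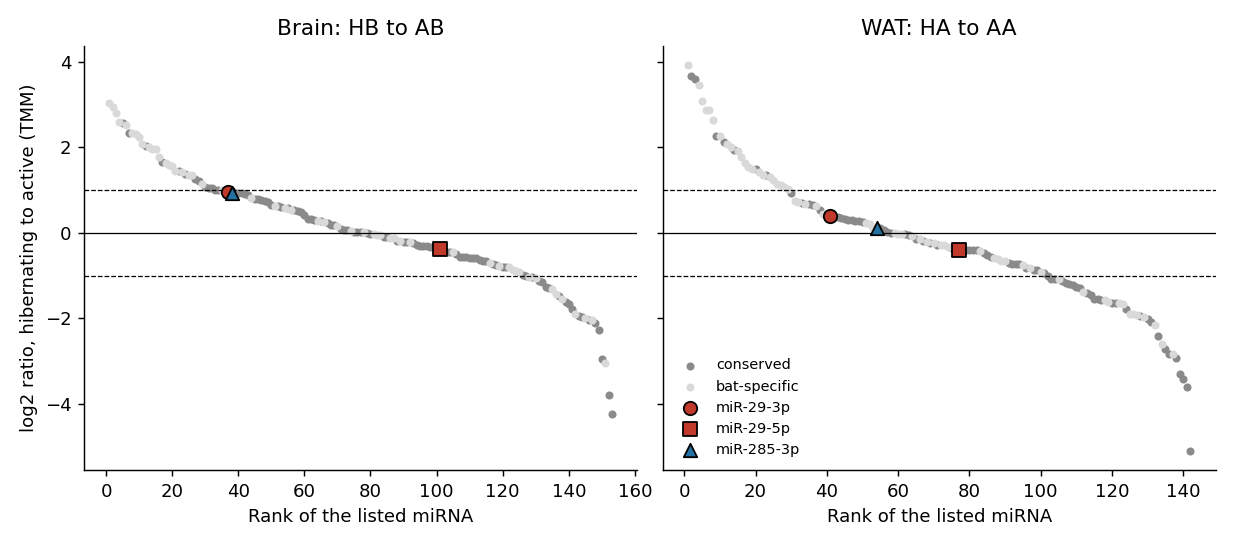
Log2 ratios of hibernating to active (TMM scaling) for every listed miRNA with at least 10 reads in the 2 libraries, ranked from highest to lowest, in brain and WAT. Conserved miRNAs are dark grey, bat-specific ones light grey, and dashed lines mark a log2 ratio of 1 and -1. miR-29-3p sits at 0.95 and 0.40, with 36 and 40 miRNAs above it, and miR-29-5p at -0.37 and -0.39.

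The difference of the miR-29-3p state ratio between tissues, brain minus WAT, was 0.55 on the log2 scale and depended on the scaling. It was 0.61 with clean reads, 0.29 with DESeq2 size factors, 0.14 with listed miRNA reads and -0.09 with TMM over the conserved miRNAs, so even its sign was not kept. The ratio in WAT itself ranged from 0.05 with clean reads to 1.18 with TMM over the conserved miRNAs, whereas in brain these scalings gave 0.66 and 1.08. With TMM over the conserved miRNAs, miR-29-3p was thus past a size of 1 in both tissues. Counting all tags that begin with its first 18 nt put miR-29-3p at 0.61 in brain and 0.22 in WAT. TMM was then taken anew over such counts, where a start shared between miRNAs counts for each. The log2 ratio of the scaled library sizes went from -0.009 to 0.262 for HB to AB and from -0.336 to -0.241 for HA to AA. Most of the fall in brain and part of that in WAT thus came from the scaling and not from the tags. For miR-29-5p in WAT, TMM over the conserved miRNAs gave 0.39 and counting all tags with its first 18 nt gave 0.18, on the other side of 0 from the value above.

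Between tissues, both arms were higher in brain. The miR-29-3p log2 ratio was 0.93 for HB to HA and 0.32 for AB to AA. For miR-29-5p it was 1.21 (0.60 to 1.84) for HB to HA and 1.13 (0.64 to 1.63) for AB to AA. With TMM, miR-29-5p was past a size of 1 in both tissue comparisons and miR-29-3p in neither, beside 76.1% of the 159 listed miRNAs tested in the hibernating pair and 74.8% of 159 in the active pair that were past it. By direction, 40.9% of the hibernating pair were higher in brain and 35.2% lower by that size, and 38.4% and 36.5% of the active pair. For HB to HA these calls changed with the processing. miR-29-5p was at 0.63 with listed miRNA reads, 0.76 with the first 18 nt and 0.59 with bases 2 to 17, and miR-29-3p was at 1.02 with clean reads, 1.09 with DESeq2 size factors, 1.03 with conserved TMM and 1.10 with the first 18 nt.

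The balance of the arms needs no scaling, since both are counted in the same library. miR-29-5p made up 0.0104% of the reads of both arms in HB (0.00827 to 0.0129%) and 0.0259% in AB (0.0213 to 0.0313%), and for WAT 0.00857% (0.00586 to 0.0121%) in HA and 0.0148% (0.0111 to 0.0194%) in AA. This is 1 read of the 5p arm for 9628 of the 3p arm in HB and 3853 in AB, then 11669 in HA and 6748 in AA. By exact tags the passenger arm held a smaller share in the hibernating library of each tissue, and the brain intervals did not overlap while the WAT intervals did. Relative to miR-29-3p, miR-29-5p was lower in hibernation by a log2 ratio of -1.32 in brain (-1.75 to -0.90) and -0.79 in WAT (-1.47 to -0.13). The WAT difference was lost when all tags with the first 18 nt were counted, where the share was 0.0142% in HA and 0.0146% in AA and the log2 ratio -0.04 (-0.55 to 0.47). In brain that rule gave 0.0112% in HB, 0.0261% in AB and a log2 ratio of -1.22 (-1.57 to -0.87).

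Of the 46 listed hairpins with both arms listed under 1 name, 32 in HB and 29 in AB, then 24 in HA and 26 in AA had at least 100 reads of the arms together. Counted from the lowest share of the minor arm, mir-29 was in place 11, 14, 13 and 10 of these, so other hairpins had a lower counted share. Some of those had 0 reads of the minor arm at low depth, such as miR-432 in HA with 188 reads of its 5p arm and 0 of its 3p arm. Such depth cannot resolve a share as low as that of mir-29, which limits these places and the medians. The median minor arm share was 0.358% in HB and 0.0811% in AB, then 0.00655% in HA and 0.198% in AA. The hairpin next above mir-29 was miR-100 in HB (0.0190%), HA (0.0188%) and AA (0.0246%), and miR-432 in AB (0.0811%). Next below were miR-7g in HB (0.00829%), miR-100 in AB (0.0195%), miR-7f in HA (0.00453%) and miR-7e in AA (0.00946%). The change of the minor arm relative to the major one was below 0 in 10 of 19 hairpins in brain (median -0.04) and in 9 of 15 in WAT (median -0.45), and 2 hairpins in brain and 6 in WAT were lower than mir-29.

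Mature miRNAs occur as forms of different length, called isomiRs, that arise when the hairpin is cut at a neighbouring base or when bases are trimmed from or added to the 3′ end. Tags with the first 18 nt of miR-29-3p numbered 471 and held 1124033 reads in HB and 613056 in AB, then 464410 in HA and 472302 in AA. Its leading forms are shown with the bases after position 18 in capitals, since these carry the differences.
listed form: tagcaccatctgaaatcgGTTA
21-nt form: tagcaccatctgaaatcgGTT
A22T form: tagcaccatctgaaatcgGTTT
T21A form: tagcaccatctgaaatcgGTAA
23-nt form with an added A: tagcaccatctgaaatcgGTTAA
The listed form held 71.1% of these reads in HB and 67.9% in AB, then 80.4% in HA and 75.7% in AA. Forms that end before the last listed base held 18.5%, 23.3%, 11.2% and 15.9% in the same order. The hibernating library of each tissue therefore had a larger share of the full-length form and a smaller share of shortened ones, and WAT had a larger share of the full-length form than brain. No intervals of these shares overlapped between libraries. The study reports a higher RNA integrity number and a smaller share of low-quality reads for the hibernating library of each tissue. Its reported ratio of large to small ribosomal RNA went the other way, lower in the hibernating library of each tissue. The part of RNA and read quality in these shares was not tested.

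The 21-nt form, which lacks the final A, made up most of the shortened reads, with 16.7% in HB and 20.9% in AB, then 10.3% in HA and 14.5% in AA. The 20-nt form held 1.24%, 1.65%, 0.653% and 0.921%, and the 19-nt form 0.534%, 0.712%, 0.279% and 0.473%, in the same order. All of these shortened forms were lower in the hibernating library of each tissue and lower in WAT than in brain in the same state. Forms that run past the listed end were rare, at 1.74% in HB and 1.11% in AB, then 1.88% in HA and 1.58% in AA. Of these the form with an added A held 1.04%, 0.558%, 1.002% and 0.875%, and the form with an added T 0.630%, 0.506%, 0.736% and 0.648%, so each was higher in the hibernating library of its tissue.

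The remaining reads ended in bases other than the listed ones, at 8.64% in HB and 7.68% in AB, then 6.51% in HA and 6.74% in AA. The A22T form was the most abundant, with 4.91%, 4.61%, 4.16% and 4.40%. The T21A form held 2.28% in HB and 1.48% in AB, then 1.05% in HA and 0.828% in AA, higher in brain than in WAT and in hibernation than in the active state. A 21-nt form with T21A held 0.326%, 0.513%, 0.206% and 0.172%, and a 22-nt form with T20G 0.122%, 0.184%, 0.231% and 0.397%, in the same order. Whether such bases come from the genome, from addition to the 3′ end or from sequencing error was not tested.

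**Figure D3:**
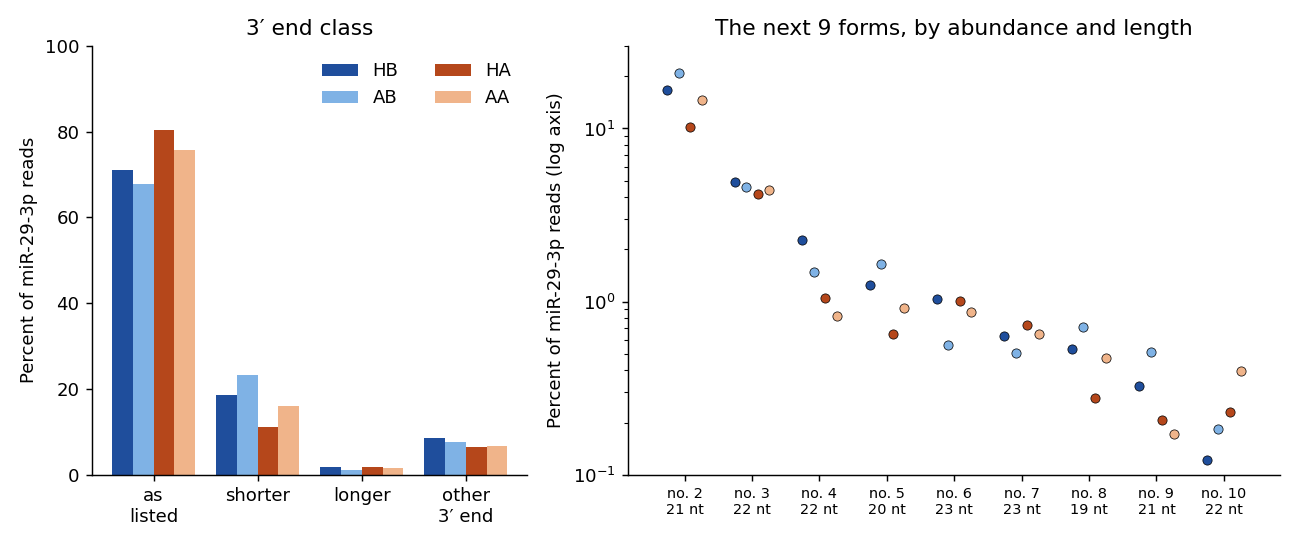
Left, percent of the miR-29-3p reads (tags with its first 18 nt) in each class of 3′ end, by library. Right, the 9 forms that follow the listed one in abundance, each marked by its place and its length, as percent of the same reads on a log axis, 1 point per library. The listed form is highest in HA at 80.4% and lowest in AB at 67.9%, and the 21-nt form runs the other way, from 10.3% to 20.9%.

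Read against other listed miRNAs, a larger share of the listed form in the hibernating library of both tissues was uncommon. The same shares were taken for 25 listed miRNAs of at least 20 nt, with at least 1000 reads in each library and a first 18 nt of their own, a comparison added after the miR-29-3p values were seen. The listed form was not the main form of each. In HB it held 1.25% of the reads of miR-101-3p and 79.3% of those of miR-129-3p, so the measure is not alike for all 25. The share of the listed form, hibernating minus active, was 3.22 percentage points for miR-29-3p in brain and 4.68 in WAT, against medians of -4.01 and -3.53 over the 25. It was above 0 in 4 of 25 in brain and in 5 of 25 in WAT, and miR-29-3p was the 1 miRNA of the 25 above 0 in both tissues, while 17 were below 0 in both.

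The share of shortened forms of miR-29-3p differed by -4.80 percentage points in brain, the lowest of the 25, whose median was 1.71. In WAT it differed by -4.74 points, with 8 of the 25 lower and a median of -2.77. Forms that are longer or end in other bases had a larger share in HA than in AA in 24 of the 25, with a median of 7.16 percentage points, while miR-29-3p differed by 0.06. The exception below 0 was miR-285-3p, the other listed carrier of the seed, at -3.75. Beside these values stands that HA had the lowest share of listed miRNA reads; its part in these shifts was not tested.

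**Figure D4:**
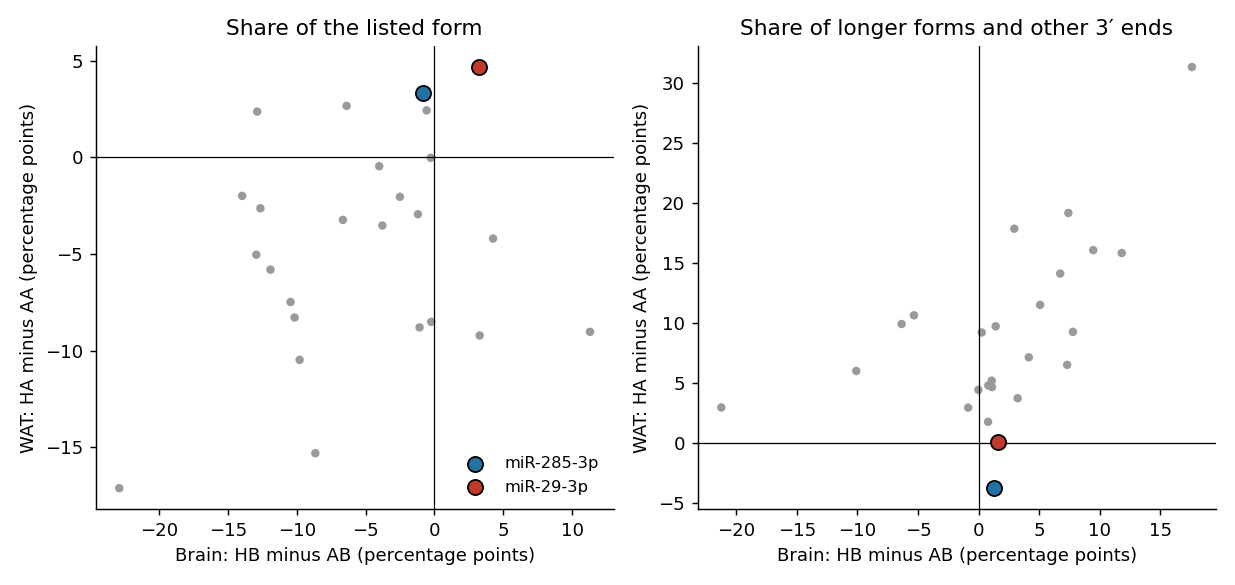
Change in the share of the listed form (left) and of longer forms and other 3′ ends (right), hibernating minus active in percentage points, with brain on the x axis and WAT on the y axis, 1 point for each of 25 listed miRNAs. miR-29-3p is at 3.22 and 4.68 on the left and is the one point above 0 on both axes, and at 1.58 and 0.06 on the right, where miR-285-3p is the one point under 0 in WAT.

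The 5′ end sets the seed, so it was looked at on its own among tags that contain bases 2 to 17 of miR-29-3p. The shifted starts are shown with the seed they would carry in capitals.
1 base later: aGCACCATctgaaatcggtta
1 base earlier: cTAGCACCatctgaaatcggtt
The listed start held 96.0% of these reads in HB and 96.8% in AB, then 97.6% in HA and 98.1% in AA. The start 1 base later held 2.19%, 1.77%, 1.16% and 1.07%, and the start 1 base earlier 1.75%, 1.39%, 1.12% and 0.772%, in the same order. The seed of miR-29-3p was thus nearly fixed, and both shifted starts were more frequent in brain than in WAT and in hibernation than in the active state. The listed start differed by -0.82 percentage points between HB and AB and by -0.49 between HA and AA, against medians of -0.15 and -0.27 over the same 25 miRNAs, of which 9 were below 0 in both tissues.

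For miR-29-5p, 16 tags held 126 reads in HB and 160 in AB, then 66 in HA and 69 in AA. The listed form took 65.9% in HB (56.9 to 74.1%) and 67.5% in AB (59.7 to 74.7%), and for WAT 48.5% (35.99 to 61.12%) in HA and 76.8% (65.1 to 86.1%) in AA. HA stood lowest and its interval did not overlap that of AA, while the brain libraries could not be told apart at this depth. The next forms were a 23-nt one with 7, 16, 9 and 2 reads and a 20-nt one with 14, 12, 6 and 1 reads in HB, AB, HA and AA. With all 16 tags counted, HA had 66 reads and AA 69, and the log2 ratio of HA to AA was 0.18 in place of -0.39.

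All tags that begin with the same 8 bases as miR-29-3p, and so share its seed and 5′ base, held 1281514 reads in HB and 717210 in AB, then 528432 in HA and 568852 in AA. This was 10.5% of the clean reads in HB and 7.17% in AB, then 4.58% in HA and 4.97% in AA. The miR-29-3p type, the unlisted type and the miR-285-3p type, each taken as all tags with its first 18 nt, held 97.2 to 98.4% of them, so this seed was almost wholly that of 3 closely related sequences. Of the 3 types together, miR-29-3p took 89.3% in HB and 86.9% in AB, then 90.3% in HA and 85.5% in AA.

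The unlisted type was the second of the family in every library, well above the listed miR-285-3p. It had 107332 reads in HB and 77956 in AB, then 42668 in HA and 71842 in AA, in 187 tags. Its share of the 3 types was 8.52% in HB (8.48 to 8.57%) and 11.1% in AB (10.98 to 11.12%), and for WAT 8.30% (8.22 to 8.38%) in HA and 13.0% (12.9 to 13.1%) in AA. The share was lower in the hibernating library of each tissue. Relative to the miR-29-3p type it was lower in hibernation by a log2 ratio of -0.41 in brain and -0.73 in WAT, with no scaling involved.

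Because the unlisted type differs from miR-29-3p by 1 base, it was set beside every other single-base change of the listed tag. The tag with C10T had 82186 reads in HB and 63494 in AB, then 36099 in HA and 61009 in AA, or 10.3%, 15.3%, 9.67% and 17.1% of the listed tag. The other 53 changes at positions 1 to 18 had a median of 243 reads in HB and 138 in AB, then 127 in HA and 129 in AA. C10T therefore stood far above the level of the other changes, at 27.2 times the largest of them in HB, 66.1 times in AB, 14.6 times in HA and 33.6 times in AA. The largest other change was A14C in HB, AB and HA and A15C in AA. At the same position, C10A had 245, 166, 164 and 191 reads and C10G 66, 36, 33 and 55.

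**Figure D5:**
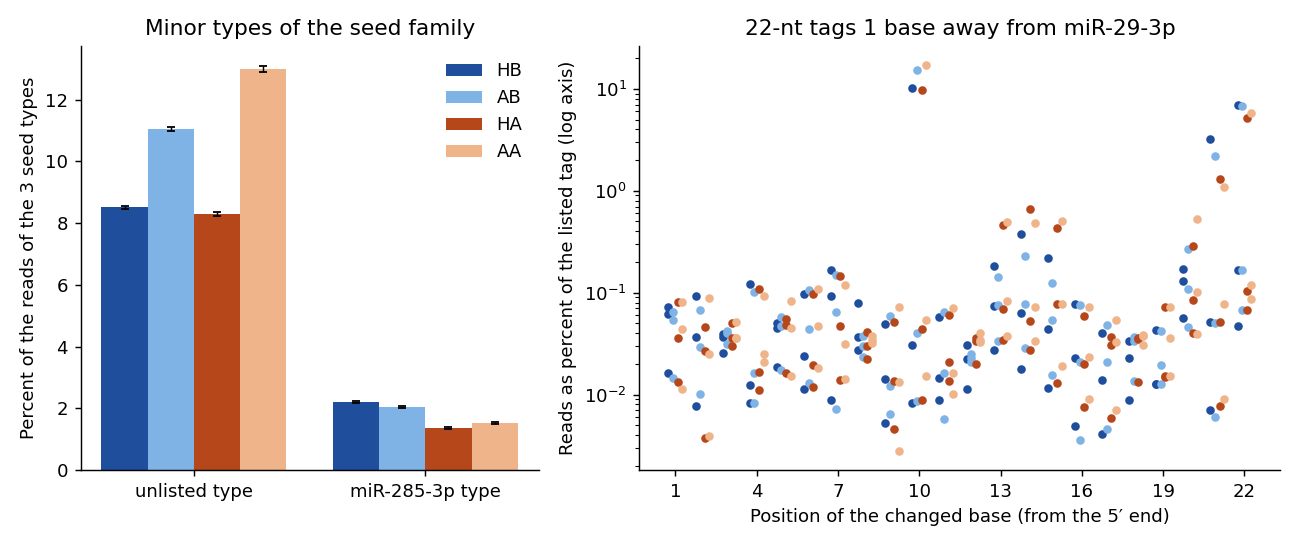
Left, percent of the reads of the 3 seed types held by the unlisted type and by the miR-285-3p type in each library, with exact 95% counting intervals. Right, reads of each 22-nt tag that differs from miR-29-3p by 1 base, as percent of the listed tag on a log axis, by position from the 5′ end and library, in the same colours. The points at position 10, from 9.67% to 17.1%, are C10T, and the high points at positions 21 and 22 are the 3′ end forms.

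The miR-285-3p type was the rarest of the 3, with 27787 reads in HB and 14382 in AB, then 6993 in HA and 8534 in AA, in 132 tags. Its share of the 3 types was 2.21% in HB and 2.04% in AB, then 1.36% in HA and 1.54% in AA, so it differed more by tissue than by state. Its listed 20-nt tag alone had 21932, 11475, 5558 and 6497 reads, with a log2 ratio of 0.94 for HB to AB and 0.11 for HA to AA. Its 5p partners were almost absent, with 9, 9, 8 and 0 reads for miR-285-2-5p and 1, 0, 0 and 0 for miR-285-1-5p, where a count of 0 allows up to 3 reads.

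Counting all tags of each type gave brain log2 ratios, HB to AB, of 0.61 for miR-29-3p, 0.20 (0.19 to 0.21) for the unlisted type and 0.69 for the miR-285-3p type. For HA to AA it was 0.22 for miR-29-3p, -0.51 (-0.53 to -0.49) for the unlisted type and -0.05 for the miR-285-3p type. With TMM the types were thus all higher in hibernation in brain and divided in WAT. The division in WAT was not kept with clean reads, where all 3 types were below 0. These values were -0.04 for miR-29-3p, -0.76 for the unlisted type and -0.30 for the miR-285-3p type. Summed over the 3, the log2 ratio was 0.57 in brain and 0.14 in WAT, where scaling by clean reads gave -0.12. No direction in WAT can thus be given for the sum or for the miR-29-3p type. Between tissues, HB to HA gave 1.10 for miR-29-3p, 1.15 for the unlisted type and 1.81 for the miR-285-3p type, and AB to AA gave 0.44, 0.18 and 0.81.

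Among 87 conserved miRNAs with at least 100 reads in all, the one whose 4 scaled log2 levels, each minus its own mean, lay nearest to those of miR-29-3p was miR-285-3p, at a Euclidean distance of 0.770. It was followed by miR-140-3p (0.929), miR-148-3p (1.10), miR-7e-5p (1.12) and miR-7g-5p (1.12), and the median distance was 3.58. The nearest to miR-29-5p were miR-185-5p (0.502), miR-30a-3p (0.600), miR-181a-3p (0.779), miR-7c-3p (0.861) and miR-7a-5p (0.880), with a median of 3.55. The arms of mir-29 were 1.21 from each other, so neither was among the 5 nearest of the other. Distances of miR-29-5p rest on 32 to 108 reads a library and carry counting error that is not given here.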

How the data were processed

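The authors trimmed adapters, dropped short reads and those with unread bases, and deposited the distinct sequences (tags) of a library with their raw read counts. The tags are 18 to 30 nt long. A miRNA was counted by its exact listed mature sequence (119 conserved and 77 bat-specific miRNAs). No genome was used here, and genomic position, hairpins and targets were not analysed. The study named edgeR; its TMM scaling over the listed miRNAs of each pair was kept (edgeR 4.0.16, R 4.3.3), with no test, since each group is 1 library. Ratios and shares carry exact Clopper-Pearson 95% intervals (SciPy 1.17.1, Python 3.11.15). A count of 0 was set to a floor of 3 reads, and miRNAs with under 10 reads in a pair were left out of the background counts. The ratio script was tested on simulated data with known changes.

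The members and lists were chosen with earlier results of these data known. The named miRNAs are the members, those sharing a seed with their partners, the unlisted type, the 10 and 3 most abundant forms, the 5 nearest in pattern, and the neighbours in level and in arm share. Alternatives were scaling by clean reads, listed reads, DESeq2 1.42.0 size factors or TMM over conserved miRNAs, other rules for the tags counted, and other minimum reads and sizes. TMM was taken anew for each rule for the tags counted. Counting only the most abundant tag of each type, the other tag rules for the rank and the arm ratio, and the comparisons with 25 other miRNAs, were added after seeing the data.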

Additional observations from a re-analysis of the deposited data

Results flagged for a closer look

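Some values moved in opposite directions between states in brain and in WAT. With 1 library a group these differences between tissues were not tested. With TMM, the unlisted type of the seed family had log2 ratios of hibernating to active of 0.20 in brain and -0.51 in WAT. The miR-285-3p type had 0.69 in brain and -0.05 in WAT. Its direction in WAT changed with the scaling. The listed miR-285-3p tag alone had 0.11 in WAT with TMM, -0.24 with clean reads and 0.89 with TMM over the conserved miRNAs. With all tags of a type counted, clean reads were the only other scaling run, and gave -0.76 for the unlisted type in WAT. Its most abundant tag alone had -0.42 in WAT with TMM. TMM over the conserved miRNAs raises the exact-tag log2 ratios in WAT by 0.78, which takes this tag above 0. Listed miRNA reads raise them by 0.32 and DESeq2 size factors by 0.25, which leave it below 0. The direction of this tag in WAT thus also depended on the scaling. Among the forms of miR-29-3p, the share of the A22T form, hibernating minus active, was 0.297 percentage points in brain and -0.231 in WAT. The share of the 21-nt T21A form was -0.188 percentage points in brain and 0.035 in WAT.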

How the results depend on the processing

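No paired analysis was possible because each group is 1 library and the labels give no replicate numbers, and leaving out a library was not run, as it would empty its group. Of 118 alternative values, 59 stayed within the counting interval (for counts of miRNAs, within 1.5 times, and for ranks, the same place) and 59 moved farther. Of the 118, 5 changed sign, all for HA to AA. Against the TMM scaling, clean reads moved the median log2 ratio of all listed miRNAs by -0.29 in brain and -0.35 in WAT, and TMM over conserved miRNAs moved it by 0.13 and 0.78. In WAT listed miRNA reads moved it by 0.32 and DESeq2 size factors by 0.25.

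For miR-29-3p, scaling by clean reads, listed reads, DESeq2 size factors and conserved TMM, then counting tags with the first 18 nt and with bases 2 to 17, gave log2 ratios of HB to AB of 0.66, 0.86, 0.94, 1.08, 0.61 and 0.71. In the same order HA to AA gave 0.049, 0.72, 0.65, 1.18, 0.22 and 0.12, HB to HA 1.02, 0.35, 1.09, 1.03, 1.10 and 0.94, and AB to AA 0.41, 0.21, 0.50, 0.23, 0.44 and 0.47. For miR-29-5p, HA to AA changed sign to 0.39 with conserved TMM, 0.18 with the first 18 nt and 0.07 with bases 2 to 17, and HB to HA was 0.59 with bases 2 to 17. With a minimum of 100 reads, 32 listed miRNAs were past a size of 1 in HB to AB, 38 in HA to AA, 78 in HB to HA and 74 in AB to AA. A size of 2 left 21 in HB to AB and 26 in HA to AA. The miR-29-5p share of both arms in HA was 0.0142% with the first 18 nt and 0.0138% with bases 2 to 17, against 0.0146% and 0.0143% in AA, so that the WAT difference in arm balance was lost. With bases 2 to 17 the listed form of miR-29-3p held 68.1%, 65.5%, 78.3% and 74.1% in HB, AB, HA and AA.

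With clean reads, the unlisted type gave 0.18 for HB to AB and -0.76 for HA to AA, the miR-285-3p type -0.30 for HA to AA, and the 3 types summed 0.55 and -0.12. With the most abundant tag of each type, the unlisted type gave 0.38 and -0.42, the miR-285-3p type 0.94 and 0.11, and the sum 0.89 and 0.30. The other sign changes were those of the sum with clean reads and of the miR-285-3p type with its most abundant tag, and the cause was not tested. By most abundant tags the unlisted type held 9.10%, 12.9%, 8.70% and 14.3% of the 3 types in HB, AB, HA and AA. Depth limits miR-29-5p, whose 32 to 108 reads leave its TMM state ratios within counting error. With clean reads they were -0.66 in brain (-1.09 to -0.23) and -0.74 in WAT (-1.42 to -0.08), outside it.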
